A study of Mus musculus with 18 samples.

Results

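In mouse embryonic stem cells, 3524 genomic regions carried a CTCF peak in sextuple knockout (SKO) and wild-type (WT) cells but none in triple knockout (TKO) cells. They are 4.51% of the 78072 regions formed by merging the peak lists of the 3 genotypes wherever intervals overlapped by at least 1 bp, and 6.37% (95% Wilson interval 6.17% to 6.58%) of the 55287 regions that held peaks in SKO and WT. These regions were chosen by the authors' peak calls themselves, that is, by presence in the SKO and WT lists and absence from the TKO list, so the fold, the −log10 q and the pileup behind a call describe them and are not tested. Position in the genome and DNA sequence were not used in the choice.

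Chromatin immunoprecipitation with an antibody against CTCF, followed by sequencing, was carried out on TKO cells, which lack Tet1, Tet2 and Tet3, on SKO cells, which lack those genes and also Dnmt1, Dnmt3a and Dnmt3b, and on WT cells. Each genotype had 3 CTCF samples and 3 input samples, 18 samples in 6 groups, and the authors called peaks on the 3 replicates together, so each list has 1 value per peak, no spread between replicates and no test between genotypes. All 3 lines shared a layer of irradiated feeder fibroblasts, whose chromatin may be in each library, and each knockout is a line of its own, so that missing enzymes and other differences between lines cannot be told apart. The lists hold no expression values, so the cell type was not checked against marker genes.

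CTCF is a zinc finger protein that binds an extended DNA motif and, with cohesin, marks the bases of chromatin loops and the borders of domains. Some forms of its motif contain CpG dinucleotides, and methylation of the cytosine at such positions is known to hinder binding. DNMT1 copies CpG methylation after replication, DNMT3A and DNMT3B add it anew, and the TET enzymes oxidise methylcytosine on the way to its removal. TKO cells keep the writers of methylation without the TET enzymes, whereas SKO cells lack both. DNA methylation itself was not analysed here.

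Sequence could be read where a WT summit fell in a promoter window, the 250 bases before and 50 bases after a transcription start, as RefSeq gives it on build GRCm38.p6 (mm10). Such a window held the summit of 58 of the 3524 regions, 46 at protein-coding genes and 12 at long non-coding RNA genes. Where several windows held a summit, as at 7 regions, the window with the nearest middle was kept, and 3 of the 12 non-coding windows share their summit with a protein-coding one. Both strands were searched for 3 spellings of the CTCF core. The first reads CCA, any 2 bases, AG, any 2 bases and GGC, and has no CpG in its fixed letters. The second has CCG in place of CCA and so a CpG at its start. The third reads CC, any 3 bases, AG, any 2 bases and GGCG, which gives a CpG at its end, and it can overlap either of the others. The stretches below show 5 of the 6 windows with the spelling that starts with a CpG, the sixth being at Idnk, and then both windows with the CCA spelling, so that the letters at the variable position can be compared. Each is given 5′ to 3′ in the direction of its gene, with the letters of the match in capitals. A match on the opposite strand reads as its reverse complement.
Apba2, plus strand, chr7:64501591-64501650: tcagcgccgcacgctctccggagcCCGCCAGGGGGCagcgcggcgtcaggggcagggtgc
Zbtb39, plus strand, match on the opposite strand, chr10:127739395-127739454: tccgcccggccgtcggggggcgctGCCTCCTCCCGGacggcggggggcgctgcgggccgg
Patz1, plus strand, match on the opposite strand, chr11:3290231-3290291: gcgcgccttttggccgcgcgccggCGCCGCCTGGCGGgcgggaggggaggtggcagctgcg
E130309D02Rik, minus strand, chr5:143315372-143315432: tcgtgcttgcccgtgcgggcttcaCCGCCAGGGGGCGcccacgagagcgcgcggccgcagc
Cog8, minus strand, chr8:107056735-107056794: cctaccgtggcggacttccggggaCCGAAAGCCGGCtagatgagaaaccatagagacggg
Gm6306, plus strand, chr2:104710175-104710235: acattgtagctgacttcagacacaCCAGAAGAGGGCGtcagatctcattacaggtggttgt
Cpz, minus strand, chr5:35525759-35525818: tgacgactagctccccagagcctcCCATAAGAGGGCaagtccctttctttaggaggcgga

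Weak here means the 3 lowest of 10 bins by WT −log10 q, the authors' significance of a peak, which hold 93.8% of the 3524 regions. The CCG spelling was in 6 of the 58 windows (10.3%, 4.83% to 20.8%), against 8.45% (5.79% to 12.2%) of 296 windows under weak regions present in all 3 lists, and 2.21% of all 32817 promoter windows. The CCA spelling was in 2 of the 58 (3.45%, 0.951% to 11.7%), against 10.8% (7.76% to 14.9%) and 2.43% in the same sets. The spelling that ends in a CpG was in 7 (12.1%, 5.97% to 22.9%), against 16.6% (12.8% to 21.2%) and 3.51%. At least 1 spelling was found in 11 windows (19%, 10.9% to 30.9%), against 24% (19.5% to 29.2%) of the weak windows in all 3 lists, 14.8% (9.44% to 22.4%) of 115 windows under regions in TKO and WT without SKO, and 5.89% of all promoter windows. For each spelling the interval of the 58 overlapped that of the weak windows in all 3 lists. Overlap of intervals is not a test, the windows are few, and the weak windows were not weighted to the strength of the members. A difference in motif content was thus not tested.

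Where a spelling was found, its middle lay a median of 85 bp from the WT summit, with a lowest distance of 28 bp at Gpr3, a receptor that signals through cyclic AMP, and a highest of 194 bp at Hdlbp, an RNA-binding protein. The match at Apba2, which encodes a neuronal adaptor of the amyloid precursor protein, lay 85 bp from the summit, that at Patz1, a zinc finger regulator of transcription, 107 bp, and that at Cog8, a subunit of the Golgi tethering complex, 63 bp. The matches at Patz1 and Hdlbp lay in the promoter window but outside the region itself. Those at Zbtb39, Cpz and Gm40733 crossed the edge of the region. A match is a string of letters in the reference and is not shown to be the bound site, and the absence of a match says only that these letters are not in the window.

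The windows were rich in CpG. They held a median of 20 CpG per 300 bases (quartiles 14.5 and 27.8) against 20.5 (11 and 27) in the weak windows of all 3 lists, 20 (14 and 27.5) in those in TKO and WT without SKO, and 7 (3 and 20) in all promoter windows. The counts ranged widely among the members, with 42 CpG at Zbtb39 and 41 at the non-coding gene Gm40733, 38 at Gpr3, 13 at Cpz, which encodes a carboxypeptidase, and 3 at the non-coding gene Gm6306. The median of the members was within 1 CpG of that of the weak windows in all 3 lists.

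**Figure D1:**
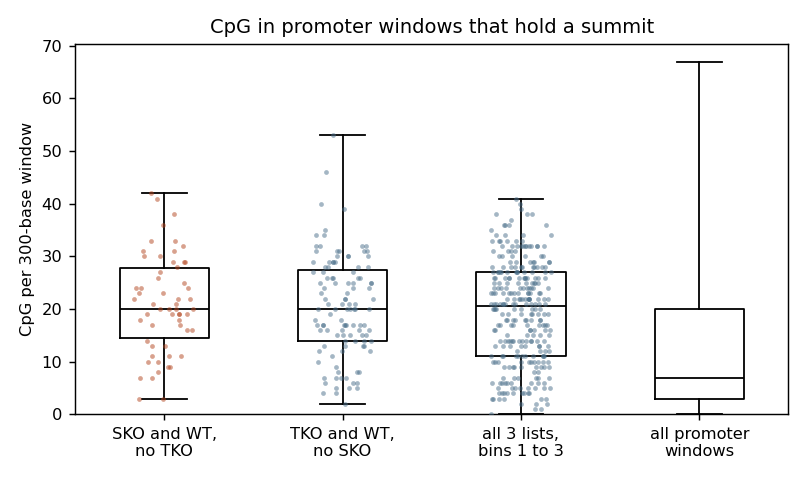
CpG dinucleotides per 300-base promoter window (vertical axis) for windows that hold a WT summit of regions in SKO and WT without TKO (58 windows), in TKO and WT without SKO (115), in all 3 lists within the 3 weakest strength bins (296), and for all 32817 promoter windows. Points are windows, boxes span the quartiles with the median as a line, and whiskers reach the lowest and highest value; the medians are 20, 20, 20.5 and 7.

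By the lower of its SKO and WT folds, the highest of the 3524 regions lay over the start of Gm13283, a protein-coding gene on chromosome 4 (region 88760679 to 88760896). Its fold enrichment, the authors' ratio of fragments over the summit to the local background with 1 added to both, was 18.6 in SKO and 12.6 in WT, from 43 and 45 fragments, and the nearest TKO interval was 12.9 kb away. This promoter window is shown whole because of its near copies. Its letters held none of the 3 spellings, so it has no capitals.
Gm13283, plus strand, chr4:88760524-88760823: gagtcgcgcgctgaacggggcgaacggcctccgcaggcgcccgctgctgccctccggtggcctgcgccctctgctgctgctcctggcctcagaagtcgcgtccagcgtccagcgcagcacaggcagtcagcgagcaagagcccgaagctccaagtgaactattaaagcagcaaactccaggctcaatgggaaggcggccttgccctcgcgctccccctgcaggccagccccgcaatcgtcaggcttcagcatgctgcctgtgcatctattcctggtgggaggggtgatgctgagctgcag
The windows of Gm13272, Gm13285 and Gm13287, which lie on the same chromosome, each differed from it at 3 of 300 bases. Regions present in all 3 lists overlapped those windows. The fold over Gm13272 was 40.5 in TKO, 49.5 in SKO and 40.8 in WT, that over Gm13285 was 24.5 in TKO, 40.5 in SKO and 28.1 in WT, and that over Gm13287 was 31.1 in TKO, 25.1 in SKO and 35 in WT. Reads from near-identical copies cannot be assigned with certainty, and how they were treated is not given in the sources used here, so the absence of a TKO peak at Gm13283 is uncertain. It was the only window of the 58 with another promoter window within 30 differing bases.

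Among themselves the regions were weak to moderate peaks in both lists that hold them. Their fold had a median of 5.49 in SKO (quartiles 4.50 and 6.76, range 2.18 to 18.6) and 5.86 in WT (4.72 and 7.41, range 2.17 to 18.9). The added 1 lowers a fold more where the background is low, as in the SKO list, and ratios of SKO over WT fold carry that. The regions in all 3 lists had medians of 11.2 in TKO, 11.7 in SKO and 12.7 in WT. The median pileup, the number of fragments over the summit solved from the fold and the −log10 p, was 14 in SKO (quartiles 12 and 18) and 20 in WT (15 and 25). The fold was at least 5 in both lists in 1789 regions and at least 10 in both in 21. Only 17 of the 3524 exceeded the median −log10 q of the SKO list, 97 exceeded that of the WT list, and 4 exceeded both.

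The SKO and WT summits were a median of 21 bp apart, against 11 bp in the regions of all 3 lists, and 2951 regions (83.7%) had summits within 50 bp. The interval had a median width of 253 bp in SKO and 272 bp in WT, and 3518 of the 3524 regions held exactly 1 interval of each list. The fold was higher in SKO in 1457 regions (41.3%) and higher in WT in 2067, and the ratio of SKO over WT fold had a median of 0.930 (quartiles 0.742 and 1.16). In the regions of all 3 lists the same ratio had a median of 0.928, and SKO was the higher in 41.8%.

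**Figure D2:**
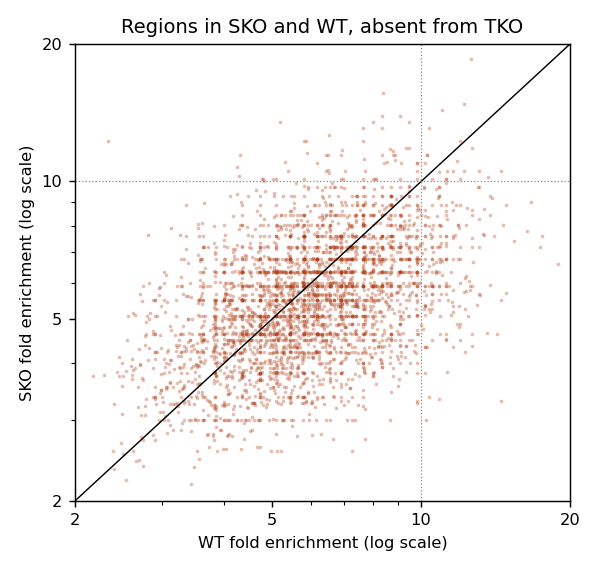
Fold enrichment in SKO (vertical axis, log scale) against fold enrichment in WT (horizontal axis, log scale), 1 point per region in SKO and WT without TKO (3524 points), with the line of equality and dotted lines at a fold of 10. Points scatter on both sides of the line, 1457 above it and 2067 below it, and 21 lie in the upper right corner past 10 on both axes.

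The share of SKO and WT regions absent from TKO was lower the stronger the WT peak was. The 55287 regions with SKO and WT peaks were divided into 10 bins by WT −log10 q, and the share without TKO was 34.5% (33.3% to 35.8%) in the weakest bin, 17.2% in the second, 7.89% in the third, 3.14% in the fourth and 0.687% in the fifth. The sixth held 9 such regions and the seventh held 1. The 3 strongest bins held none, and in the eighth a count of 0, read as at most 3 of its 5541 regions, allows a share of up to 0.0541% (Wilson upper limit 0.0693%). The 3 weakest bins held 3305 of the 3524 regions (93.8%). The opposite class, regions in TKO and WT without SKO, made up 9.77% of the 57366 regions in TKO and WT, with 45.9% in the weakest bin, 24.2% in the second and 12.3% in the third, so the same slope with strength was present in the lists where SKO was the missing one.

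**Figure D3:**
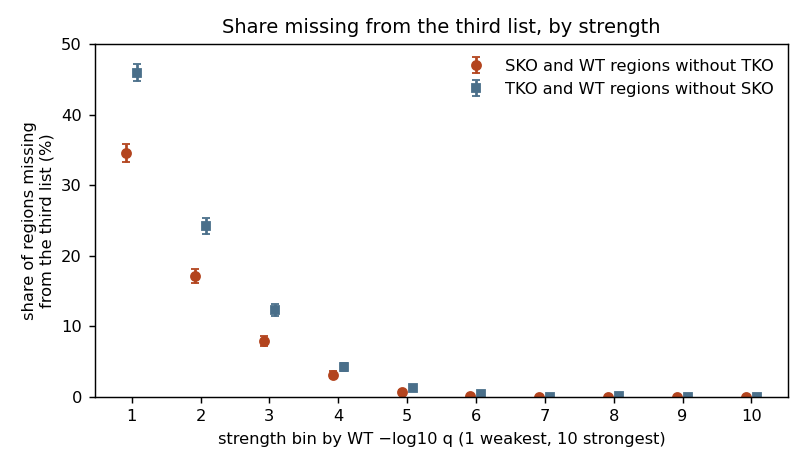
Share of SKO and WT regions without a TKO interval (circles) and of TKO and WT regions without an SKO interval (squares), in percent, in 10 bins by WT −log10 q with the weakest at the left. Bars are 95% Wilson intervals and cover counting error only; the circles are at 34.5%, 17.2%, 7.89% and 3.14% in the first 4 bins and at 0 in the last 3, and the squares are above the circles in the first 6 bins.

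Depth sets how low a peak can be and still be listed. The genome-wide background, the lowest background in each list, was 1.82 fragments in TKO, 1.37 in SKO and 1.76 in WT. At that background the lowest pileup listed was 8 fragments in TKO and 7 in SKO and in WT. Applied to each of the 3524 regions, with the WT background scaled to the TKO list, a TKO peak would have needed a median of 9 fragments (quartiles 8 and 11) to be listed. The WT pileup, scaled in the same way, was a median of 2.18 times that number, was at least 2 times it in 2033 regions (57.7%), at least 3 times it in 578 (16.4%), and under it in 24.

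The same numbers bound how much lower TKO was, if its local background followed that of WT. In the third bin, the highest TKO pileup that would have stayed unlisted was a median of 0.276 of the scaled WT pileup, and was under 0.5 of it in 441 of 441 regions. In the regions of all 3 lists in that bin the TKO pileup was a median of 0.883 of the scaled WT pileup and under 0.5 of it in 174 of 5150 (3.38%). In the weakest bin the bound was under 0.5 in 897 of 1912 regions (46.9%), so at the others absence from TKO leaves room for a TKO pileup above 0.5 of the scaled WT pileup. The bound follows from the absence that chose the regions and is a description.

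The edge of the choice is a listing threshold, and peaks near it stand on both sides. The weakest members included a region inside Phactr4, a regulator of protein phosphatase and actin, with a fold of 5.49 in SKO and 2.87 in WT from 12 and 7 fragments. Another lay inside Nr5a1, a nuclear receptor of steroid-producing tissues, with a fold of 2.92 in SKO and 5.49 in WT from 7 and 19 fragments. The others lay in or near Lztr1, Iba57, 1700018B08Rik and Gucy1a2. Just outside, among regions in all 3 lists with a WT fold of at least 10, the lowest TKO −log10 q belonged to a region inside Tspan5, a tetraspanin gene, at 1.37, with a fold of 2.45 in TKO, 8.01 in SKO and 10.6 in WT. A region near Dctd, deoxycytidylate deaminase, had 2.68 in TKO, 5.49 in SKO and 11.6 in WT, and one near Osbpl10, which encodes a lipid-binding protein, had 2.55 in TKO, 11.1 in SKO and 10.1 in WT. The rest of this set lay in or near Apbb2, Nvl and Caln1. These low TKO peaks are counted as present although the TKO fold was well under the others.

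After Gm13283, the regions of highest fold in both lists lay mostly far from gene starts. A region 25.4 kb from Apold1, an endothelial response gene, had a fold of 14.8 in SKO and 12.2 in WT, from 34 and 35 fragments, with the nearest TKO interval 1.71 kb away. A region inside N4bp2l2 had 14.4 in SKO and 11 in WT. A region on the X chromosome (62520792 to 62521144), with no protein-coding gene end within 100 kb, had 12.2 in SKO and 12.0 in WT, and a TKO interval lay 0.402 kb away. A region of the same kind on chromosome 11 (27063134 to 27063455) had 11.8 in SKO and 12.7 in WT, with the nearest TKO interval at 66.1 kb. At each of these 4 regions the WT pileup, scaled, was over 4 times what a TKO listing needed.

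Among the others of the 12 highest by that measure, a region inside 0610030E20Rik had a fold of 11.1 in SKO and 11.8 in WT. A region 3.21 kb from Wdr72, a gene required for tooth enamel, had 10.6 in SKO and 14.5 in WT and was 144.0 kb from the nearest TKO interval. Regions inside Arsj, an arylsulfatase gene, and Osmr, the receptor subunit for oncostatin M, had 10.6 and 10.5 in SKO, against 11.3 and 10.9 in WT. A region 1.14 kb from Vmn2r11, a vomeronasal receptor gene, had 10.6 in SKO and 12.2 in WT. The remaining places among the 12 went to regions without a gene within 100 kb on chromosome 2 (115116661 to 115116981), with 10.6 in SKO and 13.1 in WT, and on X (164787308 to 164787644), with 10.6 in SKO and 11.6 in WT. Of the 12 regions, 4 had no protein-coding gene end within 100 kb.

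Position relative to genes was not used in the choice, but gene-boundary shares vary with peak strength, and so does membership. The WT summit lay inside a protein-coding gene in 51.4% of the regions (49.8% to 53.1%), against 51.5% of regions in all 3 lists once these were weighted to the strength bins of the members. It lay within 1 kb of either boundary of a protein-coding gene in 265 (7.52%, 6.69% to 8.44%), against 10.4% at member strength in all 3 lists and 7.57% (6.90% to 8.29%) of the regions in TKO and WT without SKO. Within 1 kb of a protein-coding transcription start there were 190 (5.39%, 4.69% to 6.19%), against 7.17% at member strength in all 3 lists and 5.37% in TKO and WT without SKO. Over 100 kb from any protein-coding gene there were 472 (13.4%, 12.3% to 14.6%), against 11.1% at member strength in all 3 lists, 11.5% (10.7% to 12.4%) in TKO and WT without SKO, and 13.5% (12.8% to 14.2%) of the 9934 regions in WT alone. The gene-boundary share of the members thus lay below that of regions of like strength in all 3 lists, a value outside its interval, and inside the interval of the regions missing from SKO instead of TKO. The difference itself was not tested.

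Within bins the gene-boundary share was 9.47% (8.23% to 10.9%) in the weakest bin, against 12.7% (11.6% to 13.8%) in all 3 lists. It was 5.78% (4.47% to 7.44%) in the second, against 7.85% (7.11% to 8.66%), and 4.76% (3.14% to 7.17%) in the third, against 7.77% (7.07% to 8.53%). In the fourth bin 2 of 171 members were at a gene boundary, and in the fifth 5 of 38. The share was lower in the members in each of the first 4 bins and higher in the fifth, where 38 regions give an interval of 5.75% to 27.3% around 13.2%.

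**Figure D4:**
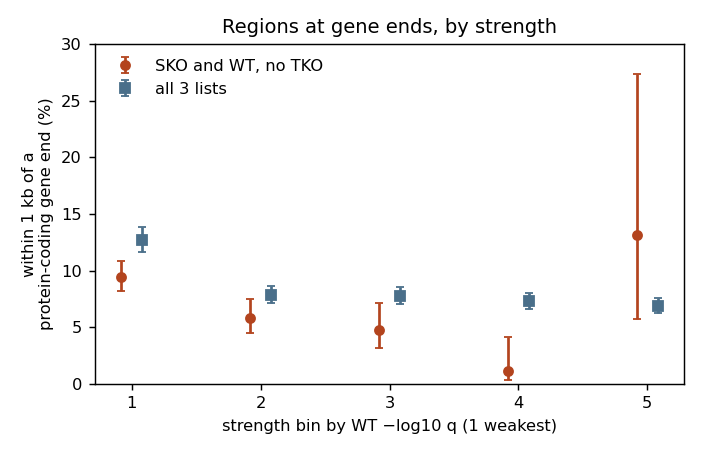
Share of regions with the WT summit within 1 kb of a protein-coding gene boundary (vertical axis, percent) in the 5 weakest bins by WT −log10 q, for regions in SKO and WT without TKO (circles) and regions in all 3 lists (squares). Bars are 95% Wilson intervals for counting error; the circles are below the squares in bins 1 to 4, at 9.47% against 12.7% in the weakest, and the fifth circle rests on 38 regions.

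The strongest regions at gene boundaries, after those at Gm13283 and 0610030E20Rik, lay near genes of varied function. At 0.861 kb inside the 5′ boundary of Zfp72, a zinc finger gene, the fold was 10.2 in SKO and 13.7 in WT. At Nkain3, which encodes a membrane partner of the sodium pump, it was 13.9 in SKO and 9.06 in WT. At 0.952 kb inside the 5′ boundary of Trat1, an adaptor of the T cell receptor, it was 9.29 in SKO and 9.12 in WT, although the promoter table places no start there. At 0.498 kb inside the 3′ boundary of Adgra1, an adhesion receptor gene, it was 8.71 in SKO and 13.4 in WT. At 0.575 kb inside the 5′ boundary of Elapor2 it was 8.69 in SKO and 8.42 in WT, with a TKO interval 0.541 kb away. The fold at the start of Apba2, whose stretch is printed above, was 9.29 in SKO and 7.98 in WT. SKO was higher at Nkain3, Trat1, Elapor2 and Apba2 and lower at Zfp72 and Adgra1.

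At least 1 of the 3524 regions lay in each of 1617 protein-coding genes, of which 1452 held exactly 1 and 140 held 2. The same count was not made for other classes, so it is not read as a trait of the members. Against the share of 6.37% over all SKO and WT regions, Magi2, a synaptic scaffold gene 1485 kb long, held 5 of its 14 regions with SKO and WT, with SKO folds of 3.75 to 7.18 and WT folds of 4.72 to 9.21. Robo2, a receptor for the axon guidance cue Slit, also held 5 of 14, with SKO folds of 4.34 to 9.71 and WT folds of 3.85 to 7.26. Bcas3 held 4 of 11 and Gpc5, a glypican gene, 4 of 14. Cdkl3, a kinase gene, held 3 of its 4 and Trpc5, a cation channel gene on X, 3 of its 5. The strength of their regions alone would give 1.97 in Magi2, 2.63 in Robo2, 1.24 in Bcas3, 1.62 in Gpc5, 0.627 in Cdkl3 and 1.03 in Trpc5. These genes were picked for their counts, and Robo2 and Gpc5, like Magi2, are long, at 1555 and 1433 kb. Of the 21 genes that held 3, Cdkl3 and Trpc5 are shown because they had the fewest SKO and WT regions. At the other end Pde4d held 3 of 27, against 2.44 from strength.

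Distance to the nearest TKO interval showed how much the absence rests on the overlap rule. The gap had a median of 9560 bp (quartiles 3222 and 26070 bp) and a lowest value of 4 bp. It was at most 100 bp in 5 regions, at most 500 bp in 128 and at most 1000 bp in 309 (8.77%). Another member lay within 10 kb of 141 regions (4%) and within 50 kb of 688 (19.5%). No such spacing is given for other classes, so clustering of the members cannot be read from these shares. Within 10 kb of a region present in all 3 lists there were 45.2% of the members (43.5% to 46.8%), against 45.5% (44.2% to 46.8%) of the regions in TKO and WT without SKO. The 1558 regions of all 3 lists nearest to a member within 10 kb had a median TKO over WT fold of 0.899, against 0.896 in all regions of all 3 lists, and a median SKO over WT fold of 0.95, against 0.928. At these neighbours the TKO fold was thus near its usual level.

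By chromosome, the share of SKO and WT regions without TKO was highest on X among the autosomes and X, at 9.84% (exact binomial interval 8.36% to 11.5%). The strength of the regions on X, applied with the genome-wide share of each bin, gave 10.3%. The lowest share was on chromosome 19, at 4.16% (3.19% to 5.31%), against 5.76% from strength, and chromosome 3 had 7.54% (6.56% to 8.62%), against 6.54%. On the other 18 of these 20 chromosomes the exact interval held the value from strength. Chromosome Y had 3 of 26 and unplaced sequences 5 of 70.

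**Figure D5:**
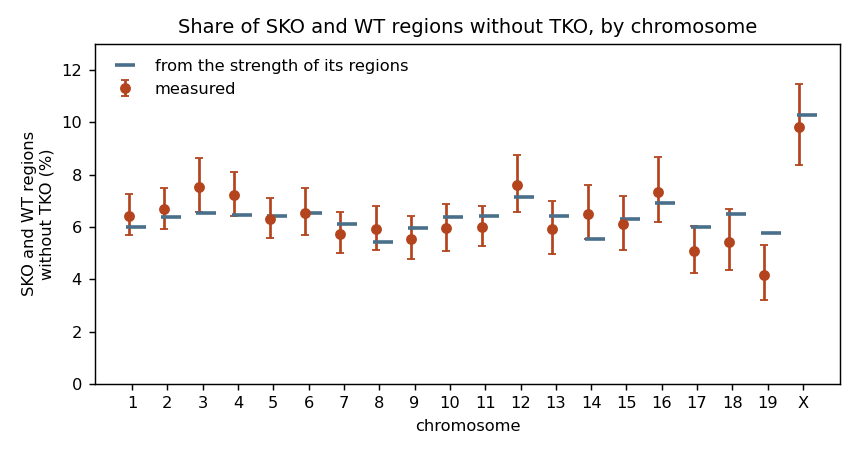
Share of SKO and WT regions without TKO on each autosome and X (vertical axis, percent). Circles are the measured share with its 95% exact binomial interval for counting error, and dashes the share expected from the WT −log10 q bins of the regions there; X is highest at 9.84% with a dash at 10.3%, and chromosome 19 is lowest at 4.16% with a dash at 5.76%.

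Regions were also read against 12 lists of genes, counting a region whose WT summit fell inside a listed gene or up to 10 kb outside it, and each count is given beside the count that peak strength alone would give. The background share was 6.37% throughout. Among pluripotency genes 3 of 56 SKO and WT regions lacked TKO, against 3.14 from strength. They were at Nr5a2, a nuclear receptor, with a fold of 6.11 in SKO and 7.19 in WT, at Dppa3, a factor that protects methylation in the early embryo, with 4.37 in SKO and 5.27 in WT, and at Esrrb, with 3.82 in SKO and 3.49 in WT. Among imprinted genes there were 4 of 102, against 4.14. The strongest lay at Peg13, a non-coding RNA inside Trappc9, with a fold of 11 in SKO and 9.83 in WT from 25 and 40 fragments, and a TKO interval lay 0.537 kb away. The others were at Snrpn, with 6.76 in SKO and 5.44 in WT, at Meg3, with 4.88 in SKO and 5.44 in WT, and at Rian, with 4.33 in SKO and 3.84 in WT.

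Among germline genes that DNA methylation silences there were 2 of 46 (4.35%, 1.20% to 14.5%), against 5.08 from strength. They were at Dazl, an RNA-binding protein of germ cells, with a fold of 5.43 in SKO and 5.61 in WT, and Mael, a factor of the piRNA pathway, with 5.25 in SKO and 5.44 in WT. Clustered protocadherins, cell surface proteins with promoters that CTCF binds, had 4 of 79, against 3.73. The overlapping genes Pcdhga1, Pcdhga2 and Pcdhga3 took in 3 of them, with SKO folds of 5.49 to 10.1 and WT folds of 3.97 to 5.03. Hox genes had 2 of 29, against 1.35, near Hoxa10, with 2.57 in SKO and 2.62 in WT, and at Hoxb6, with 3.23 in SKO and 3.76 in WT.

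The NuRD complex, which joins a chromatin remodeller to histone deacetylases, had the most among the lists of chromatin factors, with 7 of 76, against 5.37 from strength. A region inside Gatad2b had a fold of 5.34 in SKO and 7.34 in WT, and another, 4.67 kb from the gene, had 7.67 in SKO and 7.85 in WT. Chd4, the remodeller itself, had 6.63 in SKO and 4.77 in WT, and Rbbp7, a histone-binding subunit, 5.49 in SKO and 6.90 in WT. A region within 10 kb of Cdk2ap1, but nearer to 2810006K23Rik at 0.267 kb, had 4.45 in SKO and 3.61 in WT. CTCF and cohesin genes had 3 of 59, against 5.57, at Yy1, Wapl and Stag1, with a fold of 5.46, 5.49 and 5.91 in SKO, against 6.86, 4.36 and 6.53 in WT. Genes of DNA methylation enzymes and readers had 2 of 64, against 3.95. The region inside Dnmt3a, a gene deleted in SKO cells, had a fold of 7.60 in SKO and 8.35 in WT. This says nothing of the genotype unless the region lies in the deleted stretch. The other lay inside Efcab12, 81 bp from the start of that gene, and within 10 kb of Mbd4.

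Early lineage genes had 3 of 53, against 3.52 from strength, at Pou3f1, Sox17 and Dab2. Silencers of endogenous retroviruses had 2 of 62, against 4.70, at Smchd1 and Morc2a. Long neuronal genes had 26 of 300 (8.67%, 5.98% to 12.4%), against 21.2. Markers of fibroblasts, the cell type of the feeders, had 3 of 46, against 3.33, at Col5a2, Fn1 and Loxl1, with a fold of 6.01, 3.20 and 4.22 in SKO, against 6.53, 2.68 and 4.72 in WT. The part of feeder chromatin in these regions was not tested. Over all 12 lists 61 of the 3524 regions (1.73%) lay in or near a listed gene. The same share over all SKO and WT regions was not counted, so nothing about the members is read from this value.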

How the data were processed

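CTCF chromatin immunoprecipitation was measured in 3 TKO, 3 SKO and 3 WT samples, each with 3 inputs. The 3 deposited peak lists were called by the authors on pooled replicates against input, per the labels. Per the submitters' processing notes, the build was mm10 and the tools were MACS2 2.1.2, deepTools 3.5.0, bedtools 2.25.0, SAMtools 1.9, Bowtie2 2.3.4 and FastQC 0.11.7, with no commands or filters stated. Each deposited peak carries its fold, a ratio of ChIP pileup to local background, its −log10 p and −log10 q, and its summit offset, all from the authors' peak caller. The lists end at a q-value of 0.05. Depth per sample was not used here.

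Rows with equal intervals were joined and kept their strongest summit. Intervals of the 3 lists overlapping by at least 1 bp were merged. Pileup and background were solved from fold and −log10 p, and 100% of pileups came out whole within a relative error of 1e-04 when fold was read as pileup plus 1 over background plus 1, a form that rests on these values. Merging and solving were tested on simulated data. The TKO pileup needed for a listing was taken at the WT background times 1.04 and the lowest −log10 p of the TKO list. Shares carry 95% Wilson intervals, or exact ones per chromosome, on counts of regions. These cover counting error only and hold no spread between replicates, which were pooled. Fragments without molecular identifiers are also not independent molecules. Values at member strength are shares per WT −log10 q bin weighted by the members' bins. No test between genotypes was made.

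Genes, strands and promoter sequences came from RefSeq tables of GRCm38.p6, with 21900 protein-coding genes, of which 17492 have a strand. A region is named by the shortest protein-coding gene that holds its summit, or the nearest boundary within 100 kb. Named regions are the 12 of highest lower fold on the autosomes and X, and the 8 such within 1 kb of a gene boundary. The 6 genes holding most are also named, with ties going to the gene with fewer SKO and WT regions. The 6 weakest members, the 6 nearest outside and up to 4 genes per list complete the names, of which a few are left out. The near copies of Gm13283 were looked up after its values were seen. No genome sequence was used here, so motifs were searched in promoter windows in place of windows around each summit. The members, gene lists and alternatives were chosen with earlier results of these data known. Alternatives covered the overlap rule, the threshold, the gene window and the flank. Analyses used Python 3.11.15, pandas 2.3.3, numpy 2.4.6, SciPy 1.17.1 and matplotlib 3.10.9.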

Additional observations from a re-analysis of the deposited data

How the results depend on the processing

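Of 47 alternatives over 20 results, 34 stayed within the spread set for each result and 13 moved. Of the 34 that stayed, 24 were gene list alternatives, and all 13 that moved were outside the gene lists. The number of regions in SKO and WT without TKO was 3524. It was 3215 (5.82% of SKO and WT regions) when no TKO interval was allowed within 1 kb. With summits within 100 bp in place of overlap, WT peaks were counted in place of merged regions. Of 54604 WT peaks with an SKO partner by that rule, 3701 (6.78%) had no TKO partner. The number of regions was 2353 (4.51%) when SKO and WT peaks needed a −log10 q of 5. With that threshold in all 3 lists it was 2877 (5.52%), and it was 1789 (3.65%) at a fold of at least 5. The last moved the count by over 1.5 times, and the strength bins show the same dependence on strength. The share at protein-coding gene boundaries was 14.7% with a window of 2.5 kb, 11.7% with genes of all biotypes and 5.95% with a −log10 q of 5 or more, against 18.7%, 15.5% and 9.02% at member strength in all 3 lists, so it stayed below them in each. At the −log10 q threshold the median fold was 6.11 in SKO and 6.53 in WT. With bins by SKO in place of WT −log10 q, the share without TKO was 31.1% in the weakest bin and 8.81% in the third. All 24 gene list alternatives, with the gene body alone or 50 kb either side, stayed within the interval of the main share. These intervals are wide, at 1.91% to 22.0% for Hox genes, so staying inside them is a weak check.

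No paired analysis was possible because the authors pooled the replicates before peak calling, and for the same reason none was left out in turn. The planned motif windows around each summit were not run, and promoter windows stood in for them. Depth limits the weakest regions: at the genome-wide background a TKO peak needed 8 fragments and an SKO peak 7.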

Other observations

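Gene families recognised by their symbols were counted after values were seen. Vomeronasal receptor genes, which encode pheromone receptors in a cluster-rich family with near copies, had 8 of 33 SKO and WT regions without TKO in the gene or within 10 kb (24.2%, 12.8% to 41.0%), against 13.3% from peak strength, which lies inside that interval. Olfactory receptor genes had 13 of 165 (7.88%, 4.66% to 13%), against 6.46%. Zinc finger genes named Zfp had 50 of 665 (7.52%, 5.75% to 9.78%), against 7.61%.

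Hairpins of 6 microRNAs lay within 1 kb of a member summit, which was also looked up after values were seen. The share of all SKO and WT regions near a hairpin was not counted, so the number has no background and nothing is read from it. At Mir7676-2 on chromosome 15 the fold was 6.38 in SKO and 7.02 in WT. At Mir762 on chromosome 7 it was 5.19 in SKO and 5.07 in WT, and at Mir7026 on chromosome 5 it was 5.07 in SKO and 4.28 in WT. At Mir196b, in the Hoxa cluster, it was 2.57 in SKO and 2.62 in WT, from the region given above near Hoxa10. The other hairpins were Mir5619 and Mir7033.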
